A study of Mus musculus with 6 samples.

Results

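The cytosolic ribosome is built from rRNA and a fixed set of proteins of its small (Rps) and large (Rpl) subunit, and the genes for those proteins are described here in the neonatal mouse testis. A row of the count table was taken when its Ensembl identifier mapped to a symbol of the form Rps or Rpl with a number, to Rplp0, Rplp1 or Rplp2, or to Rpsa, with Rps27l left out. It also had to code for protein and to have a mean of at least 1 CPM (counts scaled to library size) over the libraries. Of 57170 rows, 83 carried such a symbol, 80 of these coded for protein, and 79 remained after the expression limit. The row lost to that limit was Rpl3l, a paralog of Rpl3 known from striated muscle, with 1 to 6 counts in each library.

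Poly(A)-selected RNA was sequenced from whole testes taken at postnatal day 5, an age at which the cords hold Sertoli cells and spermatogonia and no meiotic cells. The 2 wild-type libraries (WT-1 and WT-2) were compared with 4 libraries of the genotype named sKO (sKO-1 to sKO-4), a conditional knockout of Mdm2 directed at germ cells before meiosis. The sources used here do not give the driver of the Cre recombinase, the Mdm2 allele or more of the controls than that they were wild type. The design text speaks of equal groups, while the labels give 2 and 4 libraries, and no label says that libraries of a group came from separate animals, so each p-value rests only on the spread among these 6 libraries, which may be technical.

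Ribosomal proteins are made in equal amounts and most of their genes are expressed in every cell, with mRNAs that share a pyrimidine tract at the 5′ end through which their translation is controlled together. When ribosome assembly is disturbed, free ribosomal proteins such as RPL5 and RPL11 bind MDM2, the ubiquitin ligase that keeps p53 low, and block it. A few ribosomal protein genes have a retroposed or duplicated paralog with a restricted pattern: Rpl10l and Rpl39l are known for their use in male germ cells, where Rpl10l takes over from the X-linked Rpl10 when the X chromosome is silenced in meiosis.

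The libraries held between 17.99 and 18.4 M counts each. Mdm2 had 67.2 and 75.9 CPM in WT-1 and WT-2 and 37.6, 47.3, 41.8 and 45.1 CPM in sKO-1 to sKO-4, so every sKO library was below both WT libraries (log2 fold change −0.74, SE 0.11, edgeR adjusted p = 0.0241). The Mdm2 call ended with removal of WT-1 or of WT-2 (adjusted p of 0.171 and 0.111), with removal of sKO-2 or of sKO-3 (0.0561 and 0.0739), and with the libraries numbered 1 and 2 alone without pairing (0.0804). Of 8 germ cell markers, 7 were lower (Dazl, Ddx4, Mael, Rhox10, Sohlh1, Stra8 and Zbtb16), against 2.3% of all genes tested. The median log2 fold change of the 8 was −2.40. With WT-1 left out 0 of the 8 passed the test and their median was −2.16, and with any other library left out 7 did. Of the markers of other cells, Amh of Sertoli cells was higher, a call that ended whichever library was left out, with RLE factors, and with the libraries numbered 1 and 2 alone. Cnn1 of myoid cells was lower. A filter of 1 CPM in 4 libraries left 3 of the 4 myoid markers and removed Cnn1, so it was not tested there. The myoid list had 0 lower calls without sKO-1, without sKO-2 and without sKO-4, and 1 without sKO-3. Among 7 Sertoli cell markers, Sox9 was at 174 CPM in WT and 175 CPM in sKO. Every sKO library was above both WT libraries at 2, Amh and Dhh (28.6%, against 9.79% of all genes tested). Every sKO library was below both at 2, Rhox5 and Cldn11 (28.6%, against 13.3%), with log2 fold changes of −0.95 and −0.44. By the fit of all libraries no marker of Leydig cells, stroma, endothelium, macrophages, erythroid cells or epididymis passed the test. The leading principal component (38.1% of the variance) set WT-1 with sKO-1 and sKO-2 on one side and WT-2 with sKO-3 and sKO-4 on the other, a division that crosses the genotypes and that no label names.

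Most ribosomal protein genes lay close to their wild-type level in sKO testes, and the germ cell paralogs Rpl10l and Rpl39l fell. All 79 genes passed the filter on low counts. By edgeR's quasi-likelihood test with Benjamini-Hochberg adjustment over 17707 genes, 2 were lower (2.53%, against 2.3% of all genes tested) and 1 was higher, Rpl30 (1.27%, against 0.124% of all genes tested). The median log2 fold change was 0.12 over the ribosomal protein genes and 0.03 over all genes, or 1.08-fold and 1.02-fold. Of the 79 genes, 36 had a log2 fold change within 0.1 of 0, 36 were above 0.1 and up to 0.25, 5 were above 0.25, and Rpl10l and Rpl39l alone were below −0.1.

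**Figure D1:**
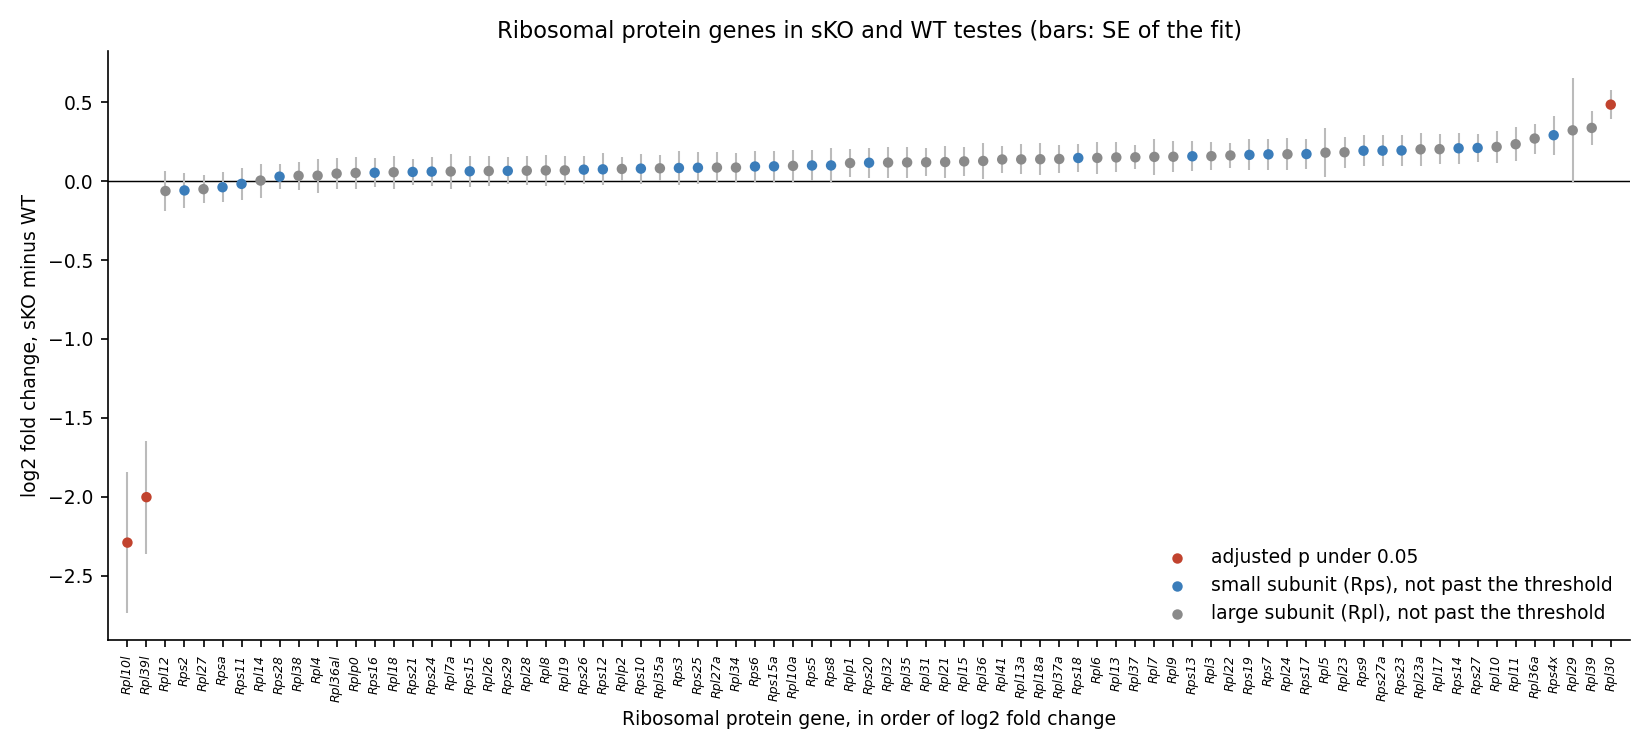
Log2 fold change (sKO minus WT) of the 79 ribosomal protein genes in rising order, with the standard error of the fit as bars and the 3 genes past an adjusted p of 0.05 in red. Rpl10l and Rpl39l stand at −2.29 and −2.0, and the other genes lie between −0.06 and 0.48.

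The coding sequences of Rpl39 and Rpl39l are shown because reads that lie within them can be told apart only where the sequences differ. Each runs over 153 bases, and capitals mark the 23 positions at which they differ (85.0% identity). The sequences come from GENCODE transcripts, whose parts outside the coding sequence were not compared.
Rpl39: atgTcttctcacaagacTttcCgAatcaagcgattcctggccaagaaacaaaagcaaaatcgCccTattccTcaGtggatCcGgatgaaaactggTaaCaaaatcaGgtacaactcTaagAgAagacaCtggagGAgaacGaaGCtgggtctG
Rpl39l: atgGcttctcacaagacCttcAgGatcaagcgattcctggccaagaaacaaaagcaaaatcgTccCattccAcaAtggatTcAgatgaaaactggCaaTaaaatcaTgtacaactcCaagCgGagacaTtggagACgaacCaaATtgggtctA
Rpl10 and Rpl10l code over 642 bases each and differ at 98 of them (84.7% identity). The first 120 coding bases hold 18 of these differences, again in capitals.
Rpl10: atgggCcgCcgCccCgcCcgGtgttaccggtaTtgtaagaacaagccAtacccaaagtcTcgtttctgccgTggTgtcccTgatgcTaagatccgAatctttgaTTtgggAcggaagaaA
Rpl10l: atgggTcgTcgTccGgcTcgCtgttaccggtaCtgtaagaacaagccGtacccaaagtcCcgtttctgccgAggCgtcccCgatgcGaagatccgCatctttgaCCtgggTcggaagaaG

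Rpl10l, the autosomal retrogene of Rpl10, had 17.9 and 12.2 CPM in WT-1 and WT-2 and 4.71, 1.98, 1.39 and 4.22 CPM in sKO-1 to sKO-4. The groups did not overlap, and sKO-1 and sKO-4 were the higher of the sKO libraries. The log2 fold change was −2.29 (SE 0.45, edgeR adjusted p = 0.0464). The call ended whichever library was left out. Removal of WT-1 gave an adjusted p of 0.378 and removal of WT-2 gave 0.0964, while removal of the sKO libraries, in order of their number, gave 0.0626, 0.111, 0.0714 and 0.0746. The log2 fold change stayed between −2.58 and −1.99 in those fits.

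Rpl39l, the autosomal copy of Rpl39, had 13.7 and 13.6 CPM in the WT libraries and 4.08, 2.20, 2.14 and 5.20 CPM in sKO-1 to sKO-4. Its groups did not overlap either, and the same sKO libraries, sKO-1 and sKO-4, were the higher ones. The log2 fold change was −2.0 (SE 0.36, edgeR adjusted p = 0.0354). The call held with sKO-4 left out (adjusted p = 0.0298). Removal of WT-1 or of WT-2 gave 0.288 and 0.115, and removal of the sKO libraries numbered 1, 2 and 3 gave 0.0735, 0.0822 and 0.0735, with log2 fold changes between −2.30 and −1.84 over the 6 fits.

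The summed level of the 8 germ cell markers was 573 and 401 CPM in WT-1 and WT-2 and 141, 91.5, 95.2 and 138 CPM in sKO-1 to sKO-4. As for Rpl10l and Rpl39l, sKO-1 and sKO-4 were the higher of the sKO libraries. The marker sum and Rpl10l were highest in sKO-1 among these, and Rpl39l in sKO-4. Of the WT libraries, WT-2 was the lower for the marker sum and for Rpl10l (17.9 and 12.2 CPM), while Rpl39l had 13.7 and 13.6 CPM. All 8 markers (100%, against 13.3% of all genes tested) were lower in every sKO library than in both WT libraries. In bulk RNA of a whole testis, fewer cells of a type and less RNA per cell cannot be told apart, and the part that germ cell number has in the values of the paralogs was not tested.

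No parent gene was called lower. Rpl10, near the peptidyl transferase centre, had 262 and 304 CPM in WT and 308, 322, 323 and 362 CPM in sKO-1 to sKO-4, each sKO library above both WT libraries, without passing the test (log2 fold change 0.22, edgeR adjusted p = 0.448). Rpl39, which lines the exit tunnel, had 202 and 256 CPM in WT and 284, 293, 288 and 289.7 CPM in sKO (0.34, SE 0.11, adjusted p = 0.211). Its groups did not overlap, and WT-1 was the lowest library. Per kilobase of coding sequence, which is equally long in both genes of a pair, mean CPM of Rpl39l was 89.2 in WT and 22.2 in sKO. That of Rpl39 was 1494 in WT and 1887 in sKO. Rpl10l was at 23.5 and Rpl10 at 441 CPM per kilobase in WT, and at 4.79 and 512 in sKO.

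As a share of paralog plus parent on that scale, the WT mean of Rpl39l was 5.70% ± 0.937 (SD, n = 2) and its sKO mean was 1.16% ± 0.511 (SD, n = 4). The means of Rpl10l in the same order were 5.13% ± 1.78 (SD, n = 2) and 0.924% ± 0.496 (SD, n = 4). The share of Rpl36al was larger, with a WT mean of 37.0% ± 0.215 (SD, n = 2) and a sKO mean of 33.5% ± 0.612 (SD, n = 4). In each of these 3 shares every sKO library was below both WT libraries. Counts come from whole transcripts, and the principal transcripts of a pair differ in length. They had 805 and 612 bases for Rpl39l and Rpl39, and 1023 and 855 bases for Rpl10l and Rpl10. Those of Rpl36al and Rpl36a had 1276 and 483 bases, and shares by transcript length were not computed. With near-identical rows added to both genes of a pair, chosen after seeing the data, the means in WT and sKO were 2.47% and 0.436% for Rpl10l, 5.67% and 1.15% for Rpl39l, and 24.1% and 21.3% for Rpl36al, again without overlap.

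Rpl36al, the autosomal copy of the X-linked Rpl36a, was not called lower in its own level, although its share was lower. It had 87.3 and 101 CPM in WT and 90.1, 97.3, 100.2 and 102 CPM in sKO, so that the groups overlapped (log2 fold change 0.05, edgeR adjusted p = 0.911). Rpl36a had 148 and 174 CPM in WT and 186, 188, 199.8 and 201 CPM in sKO, all above WT (0.27, adjusted p = 0.262). Rps4l, a copy of the X-linked Rps4x that GENCODE lists as a transcribed processed pseudogene and that is therefore not among the 79 genes, was lower: 73.4 and 72.5 CPM in WT and 48.8, 43.2, 42.0 and 51.9 CPM in sKO-1 to sKO-4 (log2 fold change −0.65, SE 0.11, edgeR adjusted p = 0.0293). The call at Rps4l held with sKO-4 left out (adjusted p = 0.0334), while removal of WT-1 or of WT-2 gave 0.269 and 0.0958 and removal of the sKO libraries numbered 1, 2 and 3 gave 0.0628, 0.0857 and 0.0794. Rps4x had 719 and 887 CPM in WT and 898, 939, 1021 and 1071 CPM in sKO (0.29, adjusted p = 0.370).

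**Figure D2:**
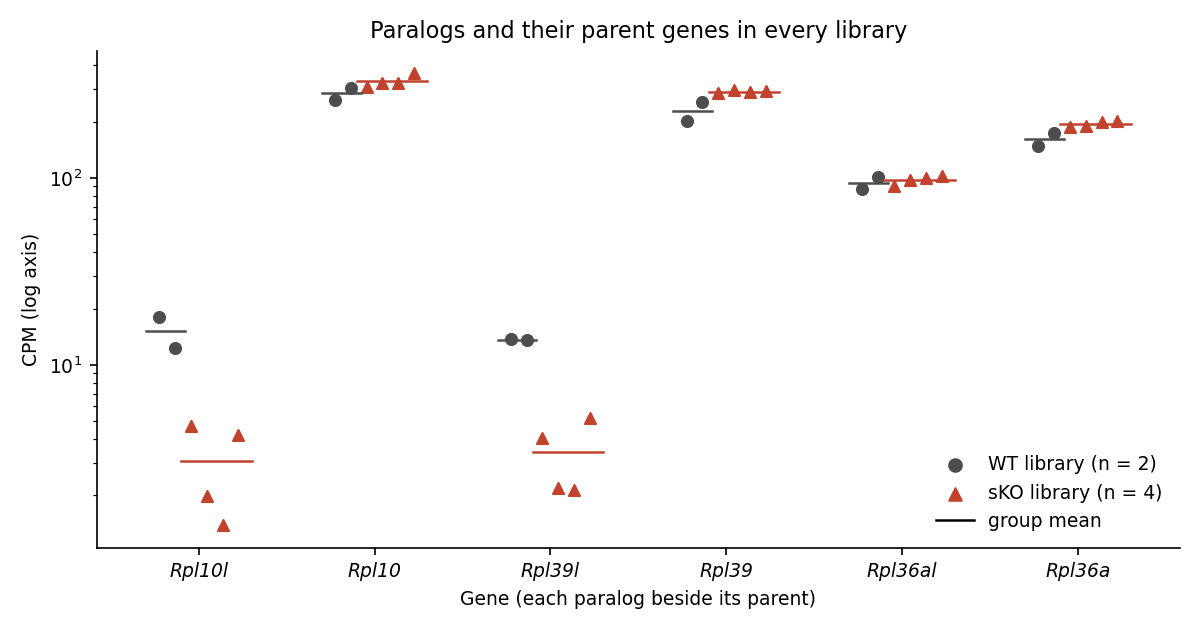
CPM on a log axis of 3 paralogs, each beside its parent gene, in every library (circles WT, n = 2; triangles sKO, n = 4; lines are group means). The sKO libraries of Rpl10l and Rpl39l lie at 1.39 to 5.20 CPM, below all WT libraries at 12.2 to 17.9 CPM, while Rpl36al and the parent genes show no such fall.

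The stretches before the starts of Rpl10l and Rpl39l are shown because these genes moved together. They are the 120 bases before the RefSeq start in GRCm38.p6, at chr12:66284402-66284521 on the minus strand for Rpl10l and chr16:10170108-10170227 on the plus strand for Rpl39l. Capitals mark a match to TTCCCGC, letters of the E2F motif, in the first and to CCGGAAG, letters of the ETS motif, in the second.
Rpl10l: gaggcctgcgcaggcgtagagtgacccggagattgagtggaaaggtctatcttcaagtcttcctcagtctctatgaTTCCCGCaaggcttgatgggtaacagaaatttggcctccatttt
Rpl39l: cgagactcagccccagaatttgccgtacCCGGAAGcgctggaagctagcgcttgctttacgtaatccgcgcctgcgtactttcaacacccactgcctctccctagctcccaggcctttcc
Both strands of the 300 bases around each start were searched. TTCCCGC was in 10.1% of 69 promoters of 59 ribosomal protein genes with an entry and in 4.60% of all 32851 promoters, CCGGAAG in 36.2% and 8.86%, the E-box CACGTG in 11.6% and 7.15%, and TATAAA in 8.70% and 13.6%. The median number of CpG dinucleotides was 21 in the ribosomal protein promoters and 7 in all promoters, with 13 at Rpl10l and 17 at each of Rpl39l, Rpl39 and Rpl10. These matches describe letters only.

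Rpl30, a large subunit protein that also controls the splicing of its own transcript in yeast, was the gene called higher. It had 252 and 297 CPM in WT-1 and WT-2 and 387, 375, 384 and 389 CPM in sKO-1 to sKO-4, with no overlap (log2 fold change 0.48, SE 0.09, edgeR adjusted p = 0.0441). This call, too, ended whichever library was left out: removal of WT-1 or of WT-2 gave an adjusted p of 0.350 and 0.0699, and removal of the sKO libraries, in order of their number, gave 0.1001, 0.113, 0.133 and 0.109. A processed pseudogene row, Gm12191, is 99.7% identical to its coding sequence, with 1 difference in 345 bases.

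Gm12191 moved the other way. It was given 1369 and 1481 counts in WT-1 and WT-2 and 7, 14, 4 and 12 counts in sKO-1 to sKO-4, or 71.1 and 83.4 CPM against 0.370, 0.750, 0.231 and 0.693 CPM (log2 fold change −7.22, SE 0.28, edgeR adjusted p = 1.97e-04). Added to its near-identical rows, Rpl30 had 323 and 381 CPM in WT and 388, 377, 385 and 391 CPM in sKO, so WT-2 fell inside the sKO range. With the rows added the log2 fold change was 0.13 and the adjusted p was 0.657. The call at Rpl30 thus held with the rows kept apart. It ended in the fit that added near-identical rows to every ribosomal protein gene that had them, and Gm12191 was not added alone.

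Division between a gene and near-identical rows was looked at for all 79 genes. With at least 90% identity over at least 80% of the coding length, 961 pseudogene rows belonged to 74 of them and 5 had none. For 16 genes over 25% of the joint counts stood in such rows, and for 6 over 50%: Rpl5 (92.3%), Rpl12 (94.5%), Rps23 (65.7%), Rpl27a (63.3%), Rpl27 (61.0%) and Rpl10 (53.6%). Rpl39l had no such row, and the row of Rpl10l held 0.0% of the joint counts.

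Rpl29 had 181 and 224 CPM in WT and 281, 125, 287 and 319 CPM in sKO-1 to sKO-4 (log2 fold change 0.32, SE 0.33, edgeR adjusted p = 0.789). Library sKO-2 was the lowest of all, and its near-identical rows reached 141 CPM there. In the WT libraries these rows had 75 and 88.7 CPM, and in sKO-1, sKO-3 and sKO-4 they had 3.86, 6.12 and 4.10 CPM. Added together, gene and rows gave 256 and 313 CPM in WT and 285, 266, 293 and 323 CPM in sKO, and the log2 fold change was 0.04 (adjusted p = 0.944).

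Rps2, a small subunit protein at the mRNA entry site, had rows at 99.4 CPM in WT-2 and 92.6 CPM in sKO-3, against 6.41 to 7.30 CPM in the other 4 libraries. The gene itself was at 921 and 966 CPM in WT and 891, 846, 847 and 1038 CPM in sKO, with overlap (log2 fold change −0.06, edgeR adjusted p = 0.901). Rpl30, Rpl29 and Rps2 thus each had a different set of libraries in which the near-identical rows were high, and only that of Rpl30 was the set of WT libraries.

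**Figure D3:**
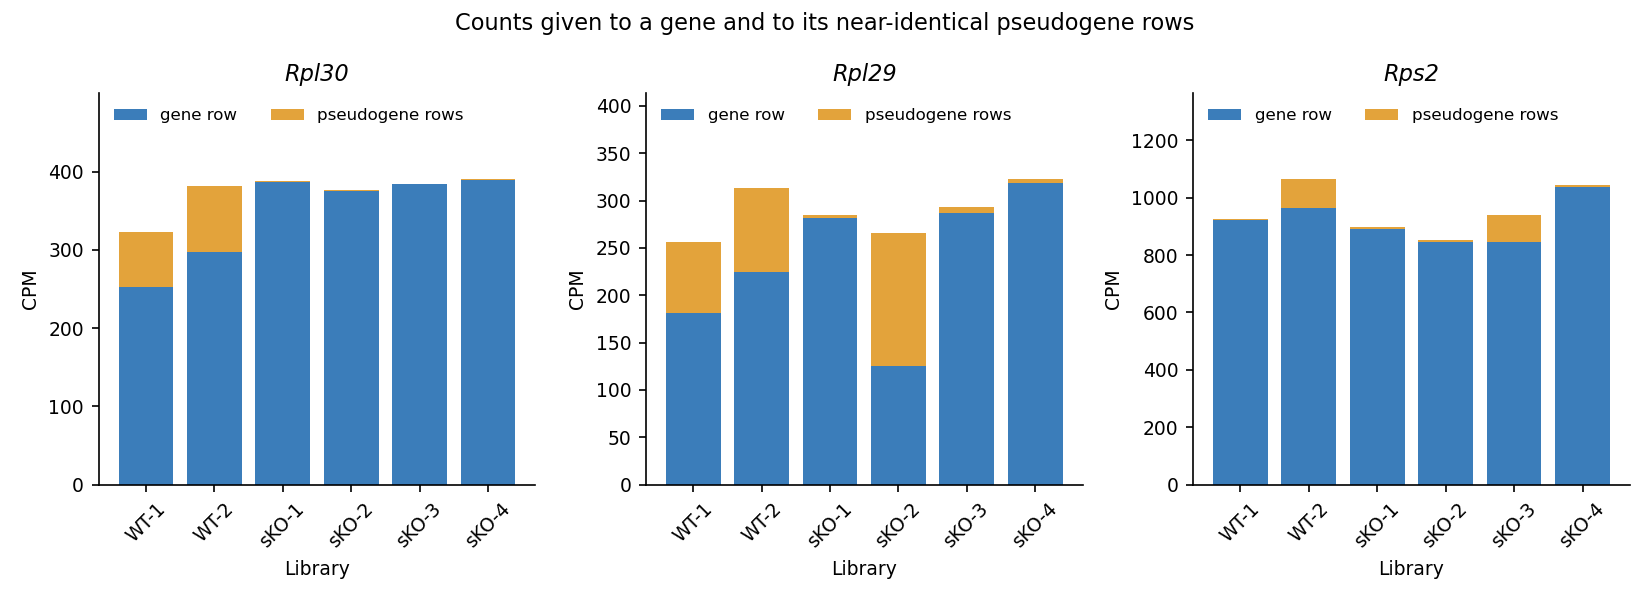
CPM given to the rows of Rpl30, Rpl29 and Rps2 (blue) and to their near-identical pseudogene rows (orange), stacked for each of the 6 libraries. The orange part of Rpl30 is 71.4 and 84.1 CPM in WT-1 and WT-2 and at most 1.39 CPM in sKO, that of Rpl29 is largest in sKO-2 and that of Rps2 in WT-2 and sKO-3.

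Small differences above 0 made up most of the rest: 72 of the 79 genes had a log2 fold change above 0, and 7 one below 0. All sKO libraries were above both WT libraries at 23 of the 79 genes (29.1%, against 9.79% of all genes tested) and below both at 2 (2.53%, against 13.3%). WT-1 was the lowest library for 73 genes and sKO-4 the highest for 62. As the median log2 deviation of the 79 genes from their mean, WT-1 stood at −0.18, WT-2 at 0.02, sKO-1 at 0.0, sKO-2 at −0.01, sKO-3 at 0.05 and sKO-4 at 0.11. WT-2 thus lay within the sKO libraries. Without WT-1 the median log2 fold change over the 79 genes was 0.02, and without WT-2 it was 0.19.

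**Figure D4:**
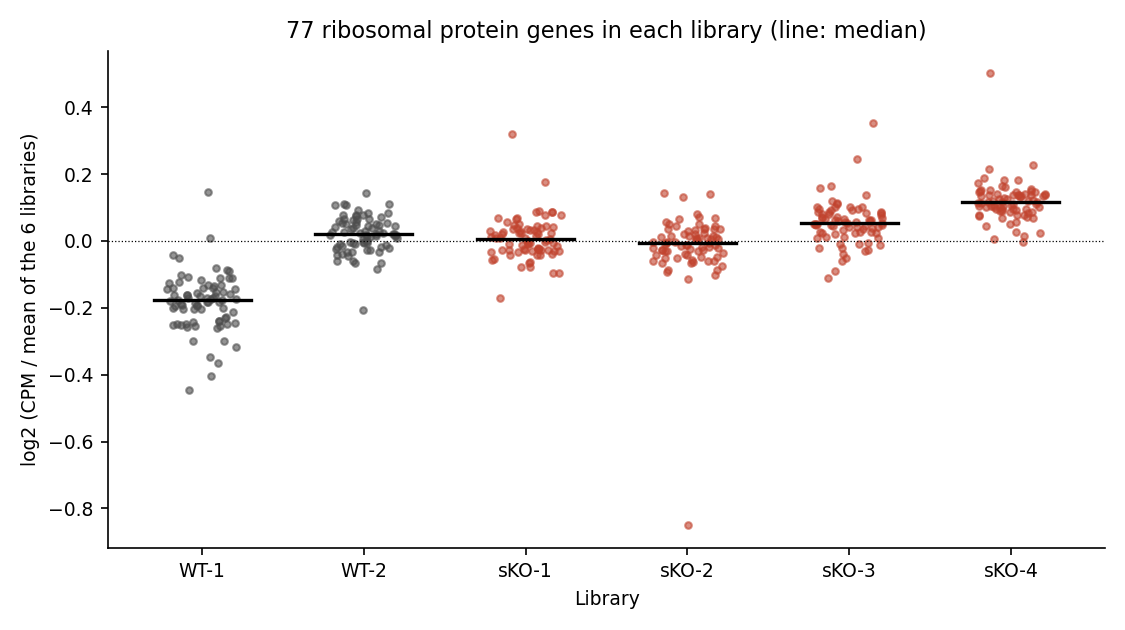
Log2 of CPM over the mean of the 6 libraries for the 77 ribosomal protein genes other than Rpl10l and Rpl39l, by library, with the median as a line. WT-1 lies lowest at −0.18 and sKO-4 highest at 0.11, and the point far down in sKO-2 is Rpl29.

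The genes together took 3.61% and 3.85% of all counts in WT-1 and WT-2 and 4.0%, 3.92%, 3.89% and 4.06% in sKO-1 to sKO-4. The means were 3.73% ± 0.171 (SD, n = 2) and 3.97% ± 0.0745 (SD, n = 4), 0.233 percentage points apart. The groups did not overlap, but the difference shrank to 0.112 with WT-1 left out and grew to 0.354 with WT-2 left out.

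With the division of the libraries seen in the leading principal component as a term in the fit, chosen after seeing the data, 15 ribosomal protein genes were higher (4.97% of all genes tested were) and 2 lower (8.65% of all genes were). The 15 were Rpl10, Rpl11, Rpl17, Rpl22, Rpl23, Rpl23a, Rpl30, Rpl36a, Rpl39, Rps14, Rps27, Rps27a, Rps4x, Rps7 and Rps9. In the set with WT-1 the median over the 79 genes was 0.15 on the log2 scale, and in the set with WT-2 it was 0.05.

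The subunits did not stand apart. The 30 small subunit genes had a median log2 fold change of 0.09 with 0 past the threshold, and the 49 large subunit genes a median of 0.12 with the 3 named above. Among the small subunit genes, Rps27 had 313 and 364 CPM in WT and 391, 391, 394 and 391 CPM in sKO-1 to sKO-4, all above WT (log2 fold change 0.21, edgeR adjusted p = 0.378). Rpsa, also known as the laminin receptor, was at −0.04 (adjusted p = 0.928). The stalk proteins that recruit elongation factors had log2 fold changes of 0.05 (Rplp0), 0.11 (Rplp1) and 0.08 (Rplp2), with adjusted p of 0.908, 0.697 and 0.783.

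The genes with the most counts were Rpl4, Rpl23a, Rpl3, Rpsa and Rpl7. Rpl4, a tunnel protein, had 1345 and 1512 CPM in WT and 1386, 1359, 1519 and 1588 CPM in sKO, with overlap (log2 fold change 0.03, edgeR adjusted p = 0.946). Rpl23a, a protein at the tunnel exit, had 979 and 1138 CPM in WT and 1165, 1165, 1240 and 1299 CPM in sKO, without overlap (0.20, adjusted p = 0.490).

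Of the genes whose proteins are known to bind MDM2, 0 of 14 passed the test in either direction. All 14 had a log2 fold change above 0, from 0.06 (Rps15) to 0.23 (Rpl11), with a median of 0.15. Of all 79 ribosomal protein genes 72 were above 0, with a median of 0.12. At 5 of the 14 (35.7%) all sKO libraries were above both WT libraries, against 29.1% of the 79 and 9.79% of all genes tested. With WT-1 left out the median of the 14 was 0.03. With the library division as a term, 5 of the 14 were higher, as were 15 of the 79 and 4.97% of all genes tested. Rpl11, which forms a particle with RPL5 and 5S rRNA, had 443 and 537 CPM in WT and 574, 536, 587 and 606 CPM in sKO-1 to sKO-4 (log2 fold change 0.23, edgeR adjusted p = 0.423). The groups overlapped, since sKO-2 lay just below WT-2. Rpl23 had 733 and 860.5 CPM in WT and 884, 878, 929 and 925 CPM in sKO, without overlap (0.18, adjusted p = 0.510).

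Rpl5 had 54.9 and 76.1 CPM in WT and 66.1, 68.7, 83.7 and 78.3 CPM in sKO in its own row (log2 fold change 0.18, edgeR adjusted p = 0.730). Nearly all of its counts stood in a near-identical row, Gm15500, with 738 and 859.9 CPM in WT and 853, 819.7, 903 and 918 CPM in sKO. With all rows added the log2 fold change was 0.13. Trp53, which codes for p53, had a log2 fold change of 0.18 (adjusted p = 0.788).

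Other genes of translation moved as little, though the median of the mitochondrial list was below 0. Of 23 translation factors 0 passed the test, with a median log2 fold change of 0.11, which was −0.0047 with WT-1 left out and 0.02 in the blocked fit of libraries 1 and 2. Eef1a1, which brings aminoacyl-tRNA to the ribosome, was at 0.13 (edgeR adjusted p = 0.755), and Eef2, which drives translocation, at 0.04 (adjusted p = 0.916). Of 78 genes for mitochondrial ribosomal proteins 0 passed the test. Their median log2 fold change was −0.06, within a range of −0.51 to 0.19. At 16 (20.5%, against 13.3% of all genes tested) all sKO libraries were below both WT libraries, and at 0 above both (against 9.79%). With the library division as a term, 2 translation factors were lower and 4 higher, and 3 mitochondrial genes were lower and 0 higher. Of all genes tested, 8.65% were lower and 4.97% higher in that fit. Mrpl3 was at −0.04 and Mrpl39 at 0.08 (adjusted p of 0.906 and 0.871).

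Of 6 further rows for ribosomal proteins or close relatives that the symbol rule does not take, 0 passed the test. Rps3a1 was at 0.10 and Fau, whose product is cut into RPS30 and a ubiquitin-like protein, at 0.14. Rps27l, a p53 target in human cells, was at 0.10 (edgeR adjusted p = 0.809), Rpl22l1 at 0.06 and Rpl7l1 at −0.09.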

How the data were processed

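The authors deposited 1 table of expected counts per gene for 6 libraries of testis RNA. The submitters' processing notes name fastp, STAR, RSEM and the mouse build mm39. Their versions, the annotation, the strand setting and the handling of multiply matching reads were not given in the sources used here. Expected counts are estimates that need not be whole, and near-identical rows can share reads. Symbols came from GENCODE M21 (51794 of 57170 identifiers, 90.6%, with 99.2% of the counts), as did biotypes, coding sequences and transcripts. Promoters came from RefSeq GRCm38.p6. No coordinates of the counted build are printed.

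These values were rounded to whole counts. Genes passed edgeR's filterByExpr (minimum count 10), which left 17707. WT was compared with sKO by edgeR 4.0.16 (R 4.3.3; TMM factors, quasi-likelihood test, adjusted p under 0.05). CPM are TMM-normalised with no pseudocount, and SD is given over libraries. Fold changes are those of edgeR's fit with its default prior count. A prior count of 2 entered only the log2 CPM of the principal components and of the comparison of same-numbered libraries. Near-identical rows were found with blastn 2.17.0. limma 3.58.1 and DESeq2 1.42.0 served as alternatives. The fit was also run on simulated counts drawn with each gene's estimated spread. These held no library division and no reads shared between rows, and the outcome is not given here. Replicate numbers pair no samples by label. The 2 WT libraries limit the precision.

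The members and lists were chosen with earlier results of these data known. Genes were named by a rule: genes past the threshold, the 5 highest and 5 lowest fold changes, the 5 most abundant, the stalk genes, Rpsa, the genes of MDM2-binding proteins, and paralogs with their parents; outside the members, Mdm2, Trp53, the 6 further rows, and up to 3 genes of each list past the threshold or, with none, the 2 most abundant. Rps27a, Rpl17, Rpl22, Rps9, Rps23, Rpl27a, Rpl18, Rps12 and the pseudogene rows were named after their values were seen. Values of 1 named gene and 1 pair of sequences are not reported here.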

Additional observations from a re-analysis of the deposited data

Results flagged for a closer look

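In 3 of 79 ribosomal protein genes, 1 of the 4 sKO libraries lay far from the other 3 by Dixon's test at the 95% level, a test that chance passes in about 1 of 20 groups. Rpl18 had 376.653 CPM in sKO-4 against 344.893 to 347.211 CPM in the others. Rps12 had 311.537 CPM in sKO-4 against 283.666 to 285.231 CPM. Rps14 had 920.279 CPM in sKO-2 against 977.96 to 988.519 CPM. No explanation was tested.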

How the results depend on the processing

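The number of ribosomal protein genes called lower was 1 in place of 2, Rpl10l being lost, with upper-quartile factors, total counts, a filter of 1 CPM in 4 libraries, libraries 1 and 2 of each group alone without pairing, and WT-2, sKO-3 and sKO-4 alone; leaving out 1 library gave 0 to 1. The number called higher was 0 with libraries 1 and 2 without pairing, near-identical rows added or a required log2 fold change of 0.5, and 0 to 0 without 1 library; it was 15 with the library division as a term and 3 within either set of libraries. The median log2 fold change was 0.0522 with libraries 1 and 2 without pairing, 0.0534 in WT-2, sKO-3 and sKO-4, and 0.0156 to 0.187 without 1 library. The share difference was 0.112 to 0.354 percentage points without 1 library. Fewer libraries entered the fits of libraries 1 and 2, of either set and without 1 library. The other settings kept all 6 libraries. The causes of these changes were not tested. The calls over all genes were 685 lower and 112 higher with DESeq2, 268 and 19 with the block and, without WT-1, 1 and 2. The division, its sets and the added rows were chosen after seeing the data.

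Same-numbered libraries did not deviate together (r = −0.01 over genes), so the numbers were not taken to pair them. With a replicate block over libraries 1 and 2, 2 genes were lower, 0 were higher and the median was 0.0546. The block gave log2 fold changes of the other sign for Eef2 (−0.0233), Mrpl39 (−0.00357), Rpl22l1 (−0.0161), Rpl26 (−0.00636), Rpl29 (−0.112), Rpl36al (−0.0194), Rpl4 (−0.0679), Rpl7l1 (0.137), Rplp0 (−0.0159) and Rps3 (−0.0109). The same libraries without the block gave −0.0237, −0.0130, −0.0208, −0.00852, −0.00849, −0.0209, −0.0695, 0.124, −0.0195 and −0.0143 for these genes in that order.

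Of 940 values for 47 named genes under 20 alternatives, 838 kept sign and side of the threshold, 37 lost a call, 14 gained one and 51 changed sign, in 19 genes, with no adjusted p under 0.720 after the change. Within WT-2, sKO-3 and sKO-4 the sign changed for Mrpl39 (−0.0216), Rpl12 (0.0260), Rpl22l1 (−0.0211), Rpl36al (−0.00807), Rplp0 (−0.0125), Rps15 (−0.00370), Rps25 (−0.00917) and Rps27l (−0.0262), within the other set for Rpl27 (0.0559), with near-identical rows added for Rpl12 (0.0911), and with total counts for Rpl4 (−0.000846). Without 1 library the range spanned 0 for Eef2 (−0.00465 to 0.0670), Mrpl39 (−0.0937 to 0.251), Rpl12 (−0.191 to 0.0444), Rpl22l1 (−0.0846 to 0.201), Rpl26 (−0.0289 to 0.134), Rpl27 (−0.160 to 0.0374), Rpl36al (−0.0561 to 0.130), Rpl4 (−0.0478 to 0.0930), Rpl5 (−0.0370 to 0.407), Rpl7l1 (−0.293 to 0.102), Rplp0 (−0.0626 to 0.147), Rps15 (−0.0424 to 0.146), Rps25 (−0.0345 to 0.185), Rps27l (−0.0399 to 0.215), Rps3 (−0.0285 to 0.175), Rps3a1 (−0.00668 to 0.196), Rpsa (−0.104 to 0.00123) and Trp53 (−0.0478 to 0.417).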

Other observations

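The 4 ribosomal protein genes on the X chromosome, Rpl10, Rpl36a, Rps4x and Rpl39, were singled out after their values were seen. All 4 had every sKO library above both WT libraries. So did 23 of the 79 ribosomal protein genes (29.1%), 85 of 596 X-linked protein-coding genes (14.3%) and 9.79% of all genes tested. By the main fit 0 of the 4 passed the test, and their median log2 fold change was 0.28. Of the 596 X-linked genes, 60 were lower and 1 was higher in that fit, against 2.3% and 0.124% of all genes tested. With the library division as a term, 4 of the 4 were higher, as were 55 of the 596 X-linked genes and 4.97% of all genes tested. Lower with that term were 109 of the 596 and 8.65% of all genes tested. By the main fit the median was 0.06 over 596 X-linked protein-coding genes and 0.03 over 14408 protein-coding genes. Leaving out WT-1 lowered the median of the 4 genes to 0.15, and leaving out WT-2 raised it to 0.39.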
